A study of Schmidtea mediterranea with 64 samples.

Results

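Whole *Schmidtea mediterranea* planarians were examined after 9 days of *mll1/2*(RNAi). The comparison set 4 *mll1/2*(RNAi) libraries against 4 *unc22*(RNAi) libraries of the same day, which are 8 of the 64 libraries of the series. Its members are the transcript IDs with a mean of at least 1 RPKM (the reads of a transcript divided by its length in kilobases and by the mega reads of the library) over the 16 whole-worm libraries of the *mll1/2* experiment, and 18443 of the 24843 IDs listed passed. The 5 IDs nearest to that limit on the inside had means of 1.0003 to 1.0012 RPKM, and the nearest on the outside started at 0.99914 RPKM.

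All animals of the series were fed calf liver paste mixed with bacteria of strain HT115 that had been induced to make double-stranded RNA. In the animals described here this RNA was directed against *mll1/2* or, as the non-targeted control, against *unc22*. Poly(A) RNA was taken from whole worms, and TruSeq libraries were sequenced. The other libraries of the *mll1/2* experiment came from whole worms at day 12 and from X1 cells, the planarian stem cell fraction sorted by Hoechst staining and flow cytometry, at days 9 and 12. A second experiment knocked down *set1*, sampled at days 6 and 9, with *unc22*(RNAi) groups of its own. The labels number the replicates but do not say whether these were separate cultures or animals, how many worms entered a library, or how old the worms were. The p-values therefore measure the spread between these libraries, which may be technical.

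MLL1/2 and Set1 belong to the family of histone methyltransferases that place methyl groups on lysine 4 of histone H3, a mark found at the start sites of transcribed genes. In other animals both work in complexes that share core subunits, and Set1 complexes place much of the trimethyl mark across active promoters while MLL complexes act at more restricted groups of genes. Planarian stem cells are the only dividing cells of the adult body and replace all differentiated tissues, so a whole-worm library mixes stem cells, their descendants and mature tissue. The question of the comparison is which transcripts of the whole animal change when *mll1/2* is knocked down. Gene names are not paired with IDs in the files, so the knockdown of *mll1/2* itself was not checked, tissue markers were not looked up, and transcripts are described by level, length, and behaviour in the other libraries.

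The day 9 libraries held 16.41 to 22.51 M (mega) reads, and each had 17934 to 18761 IDs at 1 RPKM or more. No pair of replicates agreed within sampling noise, as the chi-square per degree of freedom between replicates ran from 4.17 to 39.6. On the first principal component of the 8 libraries, which held 39.3% of the variance, the *mll1/2*(RNAi) libraries lay at 3.29, 5.23, 22.4 and 40.8 and the controls at -31.3, -25.4, -20.2 and 5.05. Control replicate 4 thus lay among the knockdown libraries. At day 12, control replicate 1 stood apart, with a root mean square deviation from its group mean of 0.397 on the log2 scale, against 0.150 to 0.251 for the other day 12 libraries. It enters the day 9 fit through the shared estimate of the spread.

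*mll1/2*(RNAi) changed few transcripts by a large factor, and most of the large changes were falls, although the single largest change was a rise. A limma model fitted to log2(RPKM + 0.5) in all 16 libraries called 1674 IDs, which is 9.08% of those tested, at a Benjamini-Hochberg adjusted p below 0.05. Of these, 740 were higher after *mll1/2*(RNAi) (4.01% of the IDs tested) and 934 were lower (5.06%). At a change of at least 2-fold the balance moved to the lower side, with 214 falls (1.16%) and 13 rises (0.0705%). At a log2 change of 1.5 or more there were 44 falls and 2 rises. The median log2 change was -0.71 over the 934 falls, 0.43 over the 740 rises and 0.03 over all IDs tested. A fold change on this scale understates the change of transcripts with a low level.

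**Figure D1:**
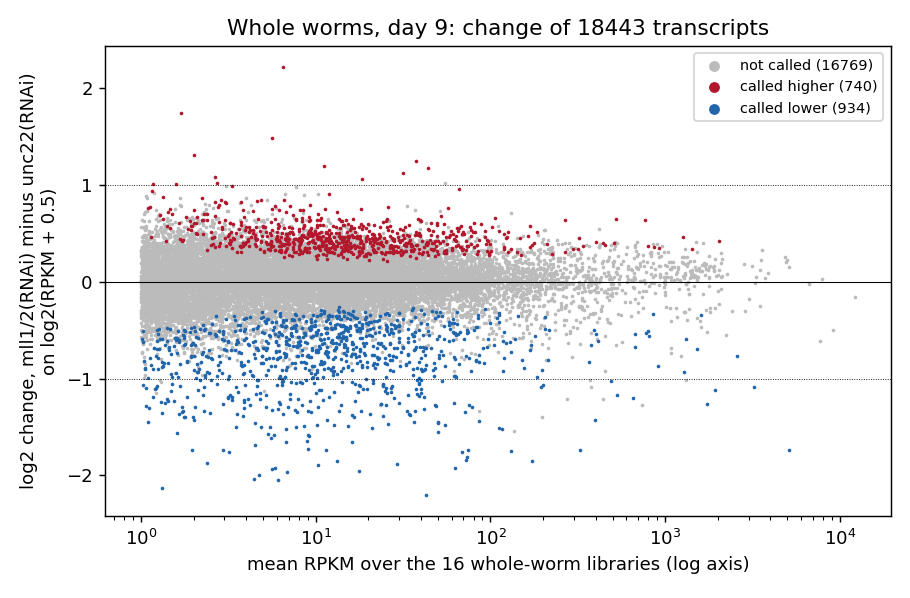
Log2 change between *mll1/2*(RNAi) and *unc22*(RNAi) at day 9 (vertical axis, on log2(RPKM + 0.5)) against mean RPKM over 16 libraries (log axis), 1 point per transcript ID, with called IDs in colour and dotted lines at 2-fold. The 214 falls past 2-fold reach -2.20, while 13 rises pass the upper line.

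The number of calls moved with single libraries. Without control replicate 1 or 2 of day 9 the fit called 636 and 668 IDs, and without *mll1/2*(RNAi) replicate 1 or 2 it called 1087 and 1018. Without control replicate 1 of day 12 it called 2976, of which 1556 were higher and 1420 lower. Weighting the libraries by their quality gave 5563 calls, 3195 higher and 2368 lower, so that rises then outnumbered falls. The 214 large falls became 141 without control replicate 1 of day 9. Calls that did not overlap between the 8 libraries and held without each of these in turn numbered 411 of the 934 falls and 178 of the 740 rises. Among changes of at least 2-fold they numbered 171 of 214 falls and 12 of 13 rises.

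The 214 large falls had a median log2 change of -1.26 and ranged from -2.20 to -1.01. Their median level was 13.7 RPKM in controls and 4.96 RPKM after *mll1/2*(RNAi), and the control means spanned 1.77 to 7689.9 RPKM. For 209 of the 214 the 4 knockdown libraries all lay below the 4 control libraries. The 214 were chosen by the difference between these same libraries, which favours such a separation. Over all IDs tested, 3055 had groups that did not overlap (16.6%), 1419 of them lower (7.69%) and 1636 higher (8.87%). Together the 214 transcripts took 3.74%, 3.25%, 2.46% and 1.95% of the reads in control replicates 1 to 4, and 1.33%, 1.16%, 1.11% and 0.997% in *mll1/2*(RNAi) replicates 1 to 4. In bulk RNA, fewer cells of a type and less RNA per cell cannot be told apart.

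Libraries of the same group differed widely in these 214 transcripts, the controls most. Relative to the mean of the 4 controls, their median log2 level was 0.44, 0.25, -0.17 and -0.50 in control replicates 1 to 4, and -1.15, -1.20, -1.30 and -1.45 in the knockdown libraries. Control replicate 1 was the highest control for 182 of the 214 (85.0%, against 23.9% of all IDs tested), and control replicate 4 was the lowest for 188 (87.9%, against 33.3%). The median difference between control replicates 4 and 1 was -0.92, against 0.02 over all IDs tested. The controls of day 12, which are other libraries, had the same order. There the median difference between control replicates 4 and 1 was -0.87, against -0.05 over all IDs tested. Replicate 4 was the lowest control for 176 of the 214 (82.2%, against 28.0% of all IDs tested). Replicate 1 was the highest for 64.0%, against 43.6% of all IDs tested. The knockdown libraries of day 9 had this order too, with replicate 1 the highest for 52.8% of the 214 (34.1% of all IDs tested) and replicate 4 the lowest for 57.0% (33.7%). What set the libraries apart in these transcripts was not tested. The size of the fall thus varied with the library it was read against. With libraries of the same number set against each other, the median log2 change was -1.55, -1.46, -1.14 and -0.96, although the numbers were not taken as pairs at day 9.

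The 25 largest falls ranged from -2.20 to -1.74, with control means of 2.92 to 574 RPKM and a median of 20.2 RPKM. After *mll1/2*(RNAi) their median was 5.51 RPKM. All 25 had groups that did not overlap at day 9, as the choice of the largest changes favours. At day 12, whose libraries entered the choice only through the filter on the mean and the shared estimate of the spread, 20 of the 25 did not overlap. Of all IDs tested, 6.93% were lower without overlap at that day. Called lower at day 12 were 16 of the 25, against 3.35% of all IDs tested. Abundant transcripts were among the large falls. In 24 of the 214 the control mean was 100 RPKM or more, and these 24 summed to 23181 RPKM in controls and 8936 RPKM after *mll1/2*(RNAi). In 4 it was 1000 RPKM or more, whereas no rise of 2-fold or more reached a control mean of 100 RPKM.

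**Figure D2:**
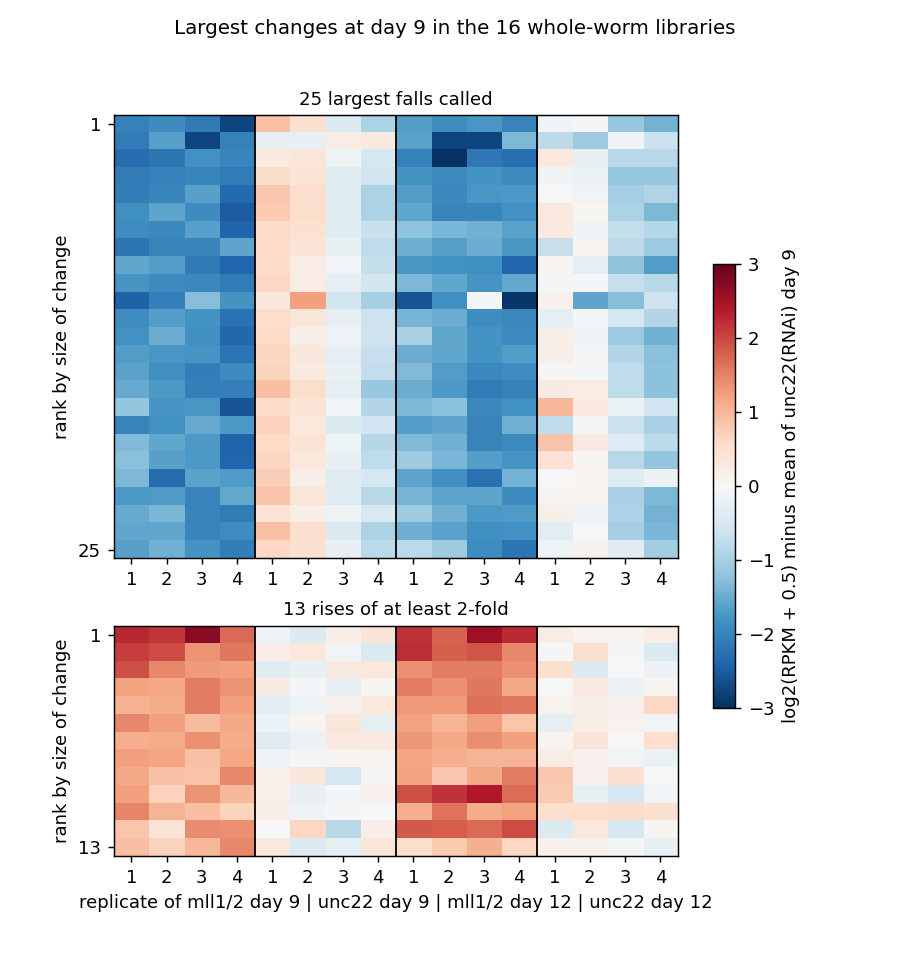
Log2(RPKM + 0.5) minus the mean of the 4 *unc22*(RNAi) day 9 libraries (colour), for the 25 largest falls called (upper panel) and the 13 rises of at least 2-fold (lower panel), 1 row per transcript, in the 16 whole-worm libraries (columns, replicates 1 to 4 of each group). Falls are below the control mean in the *mll1/2*(RNAi) libraries of day 9, and in most of these rows replicates 3 and 4 of each control group are bluer than replicates 1 and 2.

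A pair of transcripts represents the falls, chosen as the largest fall and as the most abundant faller among calls that held without each day 9 library and whose groups did not overlap. The 2 rises below were chosen in the same way, so the lack of overlap in these 4 is no finding. SMED30031134, the largest fall, stood at 138, 104, 56.0 and 38.5 RPKM in control replicates 1 to 4 and at 17.8, 19.7, 16.8 and 10.6 RPKM in *mll1/2*(RNAi) replicates 1 to 4. The controls differed among themselves more than the knockdown libraries did. Its log2 change was -2.20 (SE 0.36, limma adjusted p = 0.00214). At day 12 it was -1.14, with a limma adjusted p of 0.0727 and, with the replicate number as a block, 0.0197. In the *set1* experiment the same transcript stood at 165 ± 10.7 RPKM (SD, n = 4) in day 9 controls and 275 ± 16.4 RPKM after *set1*(RNAi), a log2 change of 0.74 (adjusted p = 1.39e-08) in the opposite direction.

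SMED30010350, the most abundant faller, stood at 9978, 9129.7, 6749 and 4903 RPKM in control replicates 1 to 4. After *mll1/2*(RNAi) it stood at 2916, 2947, 2326 and 1227 RPKM in replicates 1 to 4. Replicate 4 was the lowest in both groups. Its log2 change was -1.74 (SE 0.32, limma adjusted p = 0.00445) at day 9 and -1.09 at day 12, with an adjusted p of 0.0581 and, with the block, 0.00625. Sorted X1 cells of day 9 controls held 70.4 ± 30.8 RPKM (SD, n = 4) of it, a level far below that of whole worms, although the X1 and whole-worm tables were normalised separately.

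The rises were small and spread over many transcripts. Their median level was 11.3 RPKM in controls and 15.5 RPKM after *mll1/2*(RNAi), and 216 of the 740 reached a log2 change of 0.5, against 724 of the 934 falls. The 740 transcripts took 2.47% to 3.03% of the reads in the 4 control libraries and 3.60% to 3.98% in the 4 knockdown libraries. They were chosen by the difference between these same libraries, so this separation is no finding. At day 12 their shares were 2.59% to 3.08% in controls and 3.42% to 3.64% after *mll1/2*(RNAi). The 13 rises of at least 2-fold were of low level, with control means of 0.486 to 25.6 RPKM and knockdown means of 1.79 to 57.3 RPKM. Their median length was 635 bases, against 1235 over all IDs tested. In 12 of the 13 the groups did not overlap, as their choice by these libraries favours.

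SMED30024919, the largest rise, stood at 1.70, 1.32, 2.24 and 2.66 RPKM in control replicates 1 to 4 and at 11.1, 10.3, 15.5 and 7.41 RPKM in *mll1/2*(RNAi) replicates 1 to 4. In RPKM the spread was wider among the knockdown libraries (SD 3.33, mean 11.1) than among the controls (SD 0.588, mean 1.98). In proportion to the mean the spreads were similar. The log2 change of SMED30024919 was 2.21 (SE 0.21, limma adjusted p = 6.63e-05). At day 12 it was 2.03, with a limma adjusted p of 1.58e-04 and, with the replicate number as a block, 0.00141. SMED30001237, the most abundant riser that held without each day 9 library, stood at 138, 139, 163 and 165 RPKM in control replicates 1 to 4 and at 228, 218, 193 and 220.3 RPKM after *mll1/2*(RNAi). The knockdown libraries spanned 193 to 228 RPKM and the controls 138 to 165 RPKM. Its log2 change was 0.51 (SE 0.09, limma adjusted p = 0.00307) at day 9. At day 12 it was 0.53, with a limma adjusted p of 0.00402 and, with the block, 0.0119. After 9 days of *set1*(RNAi) its log2 change was -0.31 (adjusted p = 5.81e-06).

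**Figure D3:**
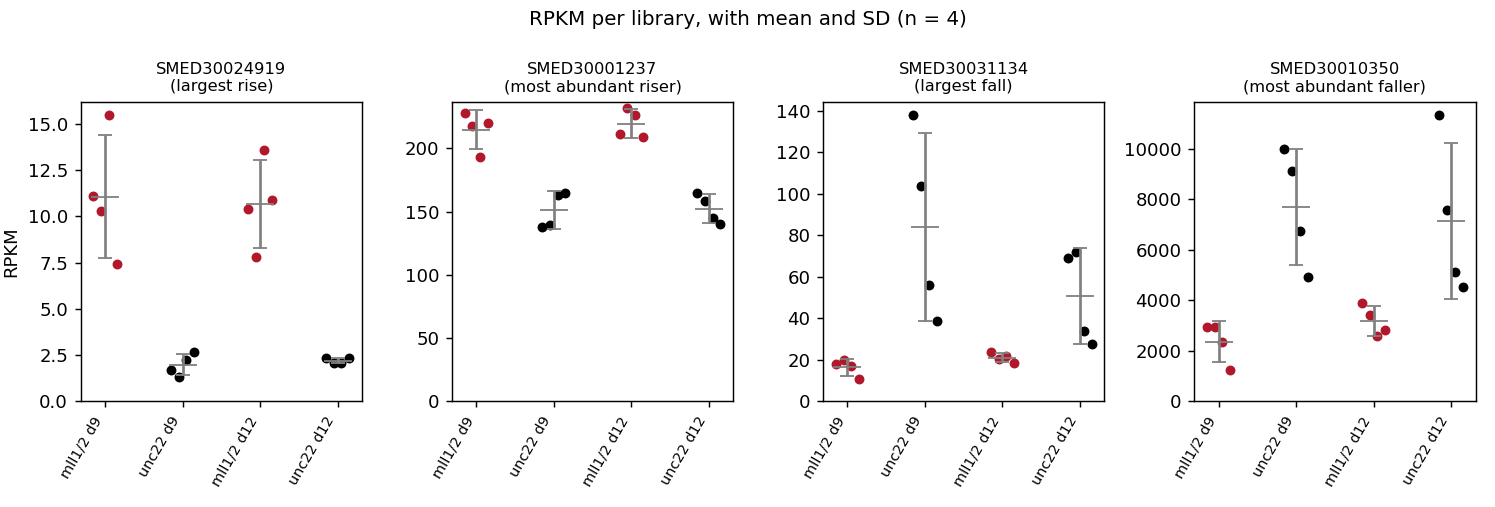
RPKM of 4 transcripts in each whole-worm library (points, 4 per group, red for *mll1/2*(RNAi) and black for *unc22*(RNAi)) at days 9 and 12, with the group mean and SD in grey (n = 4) and a linear axis from 0. SMED30024919 lies at 7.41 to 15.5 RPKM in the day 9 knockdown libraries and at 1.32 to 2.66 RPKM in the controls, while the controls of SMED30031134 spread from 38.5 to 138 RPKM.

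Transcripts that fell most were largely scarce in X1 cells. The level in X1 cells relative to whole worms was taken from *unc22*(RNAi) libraries of day 9 outside the comparison (X1 cells of the *mll1/2* experiment and whole worms of the *set1* experiment), and it was available for 17490 of the 18443 IDs. Of the 190 large falls with a value, 176 (92.6%) had a log2 ratio of -2 or less, against 6610 of the 17490 tested IDs (37.8%). Their median was 0.236 RPKM in X1 cells and 19.9 RPKM in whole worms. Among changes of any size, 639 of 871 falls (73.4%) and 441 of 724 rises (60.9%) had such a ratio. Of the rises of at least 2-fold with a value, 4 of 12 (33.3%) had it. The class of IDs with a ratio under -4 held 1996 transcripts, of which 19.5% were called lower and 7.77% higher. In the class over 2, with 1568 transcripts, 1.79% were called lower and 1.34% higher.

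Classes of abundance were also examined one by one. Among transcripts with a mean of 20 to 100 RPKM, 11.4% of those with a ratio of -2 or less were called lower, against 1.64% of the others. At 100 RPKM or more the shares were 9.20% and 0.796%, and at 1 to 5 RPKM they were 6.14% and 2.24%. Higher calls were also more frequent at a ratio of -2 or less, with 9.60% against 2.29% at 20 to 100 RPKM, 5.84% against 1.27% at 100 RPKM or more, and 2.21% against 1.99% at 1 to 5 RPKM. X1 and whole-worm values came from tables normalised separately, so the ratio ranks transcripts and is no measure of absolute enrichment. These shares describe transcripts, which are not replicates, and carry no test.

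In the *set1* experiment the 2 end classes were ordered the other way for the lower calls, and the same way for the higher calls. After 9 days of *set1*(RNAi), 18.4% of the class under -4 was called lower and 43.5% higher, while 45.7% of the class over 2 was called lower and 8.13% higher. Falls of at least 2-fold after *set1*(RNAi) numbered 45 of 1996 in the class under -4 and 46 of 1489 in the class over 2. At day 12 of *mll1/2*(RNAi) the class under -4 had 8.97% lower and 5.01% higher, and the class over 2 had 4.27% lower and 0.574% higher. The classes between these had 1.86% to 2.87% lower, so the lower calls at day 12 did not fall steadily over the classes. The difference between the knockdowns was not tested, because they were normalised and fitted in separate tables, and the whole-worm controls of the *set1* experiment enter both its contrast and the ratio.

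**Figure D4:**
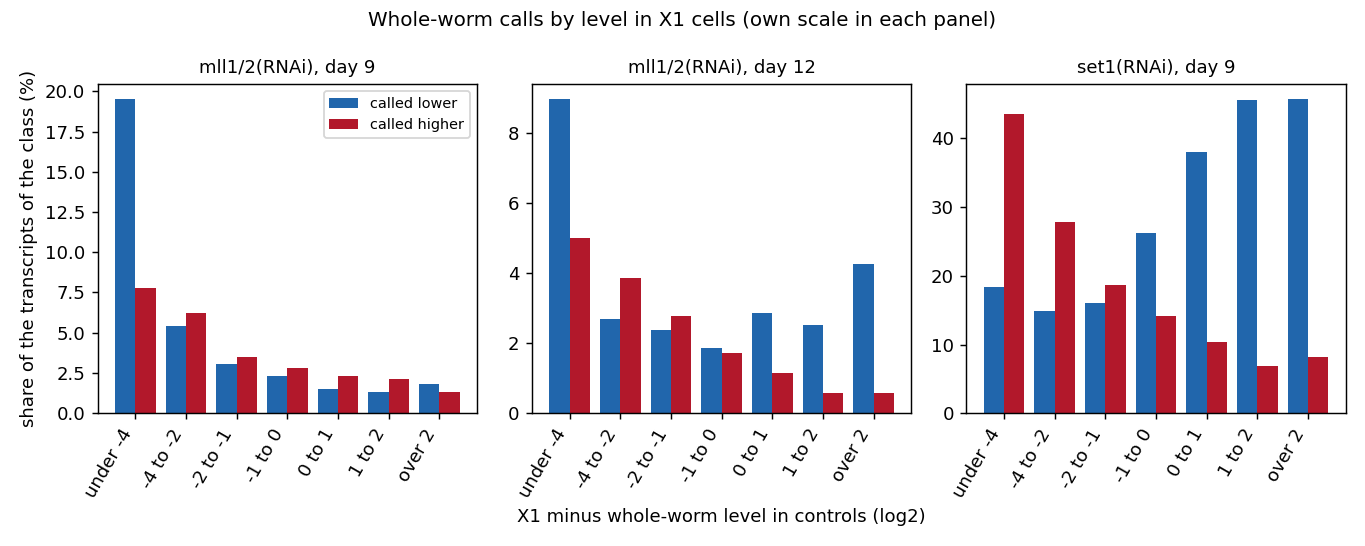
Share of whole-worm transcripts called lower (blue) and higher (red), in % of each class, by the log2 level in X1 cells minus whole worms in control animals (horizontal axis), for *mll1/2*(RNAi) at days 9 and 12 and *set1*(RNAi) at day 9, each panel on its own scale. At day 9 of *mll1/2*(RNAi) the lower calls fall from 19.5% in the class under -4 to 1.79% in the class over 2, and for *set1*(RNAi) they rise from 18.4% to 45.7%.

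The falls were present again at day 12, in libraries that share no sample with day 9. The labels do not say whether the worms of the 2 days came from separate cultures. All 214 large falls had the same sign at day 12, with a median of -0.86, and 114 of them (53.3%) were called lower, against 3.35% of all IDs tested, and with the replicate block 150 (70.1%) were, against 4.68%. Of all IDs tested, 71.8% had the same sign at both days. Of the 720 smaller falls, 692 kept the sign. Of the 740 rises, 711 kept it, with a median of 0.28, and 231 were called higher, against 2.57% of all IDs tested. With the replicate block 170 of the rises (23.0%) were called higher, against 2.90%. The 13 large rises were all called higher at day 12 too, with a median of 1.18. In all, 563 of the 1674 day 9 calls were also called at day 12 in the same direction, where 5.92% of all IDs were called, a count that was 159 without *mll1/2*(RNAi) replicate 3 of day 12 and 203 without replicate 4. Without *mll1/2*(RNAi) replicate 2 it was 324 when the day 12 library was left out and 369 when the day 9 library was. Without control replicate 2 or 3 of day 12 it was 262 and 326, and without control replicate 1 or 2 of day 9 it was 331 and 309.

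Changes chosen at day 9 were smaller at day 12 for 207 of the 214 large falls. The reverse choice gave a mixed picture. The 83 transcripts called lower by at least 2-fold at day 12 had a median of -1.16 at day 12 and -1.22 at day 9, and 42 of the 83 were smaller at day 9. Of the 23 called higher by at least 2-fold at day 12, 18 were smaller at day 9, with medians of 1.16 at day 12 and 0.96 at day 9. Among all calls of day 12, 406 of 617 falls and 363 of 474 rises were smaller at day 9. In the 214, the median level moved by 0.15 between days 9 and 12 in *mll1/2*(RNAi) worms and by -0.31 in controls, against 0.00 and 0.01 over all IDs tested. The 214 were chosen for low knockdown and high control levels at day 9. That choice favours movement in these directions, which the values over all IDs do not account for. The interaction test of limma, which asks whether the effect differs between days, called 0 IDs, with 855 (4.64%) at an unadjusted p below 0.05. A voom fit to reads recovered from the values also called 0, and weighting the libraries called 200.

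**Figure D5:**
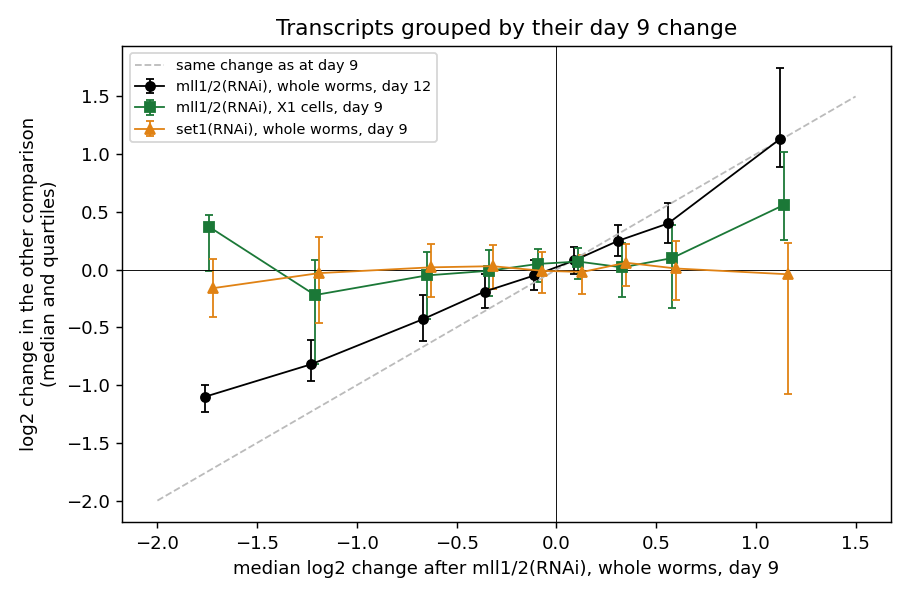
Median log2 change (points, with bars from the lower to the upper quartile) in *mll1/2*(RNAi) whole worms at day 12, *mll1/2*(RNAi) X1 cells at day 9 and *set1*(RNAi) whole worms at day 9, for transcripts grouped by their day 9 change (horizontal axis), with a dashed line of equal change. In the group that fell by over 1.5 the day 12 median is -1.10 (45 IDs), while the X1 median is 0.37 (14 IDs) and the *set1*(RNAi) median -0.16 (45 IDs).

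Few of the large falls could be read in X1 cells. There 56 of the 214 had the mean of 1 RPKM or more needed for a test, with a median log2 change of -0.10 after 9 days of *mll1/2*(RNAi), against 0.05 over the tested IDs present in both tables. Of these 56, 10 were called lower and 0 higher by limma, against 3.35% lower and 0.663% higher of the 12525 X1 IDs tested. At day 12 of X1 cells, 17 of the 56 were called lower and 2 higher, against 15.1% and 13.2% of the X1 IDs tested. Of the 13 large rises, 5 were tested in X1 cells at day 9, of which 3 were called higher and 1 lower.

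*set1*(RNAi) moved the 214 transcripts in both directions. At day 9 of the *set1* experiment 212 of them were tested, and 81 were called lower (38.2%, against 22.9% of the 19655 IDs tested there) and 64 higher (30.2%, against 19.2%). Most of the 214 were scarce in X1 cells, with 137 of the 190 that had a value in the class under -4. In that class 18.4% were called lower and 43.5% higher, so higher calls were less frequent in the 214 than in this class. The median change was -0.60 in the 81, 0.38 in the 64 and -0.02 in the 67 called neither way. After 9 days of *mll1/2*(RNAi) the medians of these same subsets were -1.26, -1.26 and -1.27. Their day 12 medians were -0.85, -0.81 and -0.96. At day 6 of *set1*(RNAi), 44 of the 212 were called lower and 53 higher, against 10.6% and 5.91% of the IDs tested. In X1 cells of the *set1* experiment at day 9, 71 of the 214 were tested, of which 14 were called lower and 20 higher, against 22.2% and 18.0% of the 13503 IDs tested.

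Calls were not spread evenly over transcript length. Of transcripts over 4000 bases, 0.570% were called higher and 5.02% lower. Of those over 500 and up to 1000 bases, 5.05% were called higher and 3.79% lower. After the trend of each library with length was removed, the shares over 4000 bases were 5.59% higher and 6.96% lower, so the scarcity of long rises depended on that trend. Large falls had a median length of 1304 bases and occurred in each class.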

How the data were processed

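The authors deposited RPKM values in 4 tables, 1 per experiment and tissue. Bowtie, CASAVA 1.8.2 and edgeR are named in the submitters' processing notes, without their roles. The transcript set is not given in the sources used here, nor is the counting method, so reads shared by near-identical transcripts are uncertain. Members and transcript sets were chosen with earlier results of these data known.

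The spacing of the lowest values gave the depth. Each value was a whole number of reads to within 0.01 read (100% of values), which gave the reads and the transcript lengths of each library. The library size implied by a step, divided by the reads listed, was 0.944 to 1.10 at day 9, so the deposited RPKM include a scaling factor.

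IDs with a mean of at least 1 RPKM over the 16 *mll1/2* whole-worm libraries were tested, with 4 groups of 4 in 1 model of log2(RPKM + 0.5) (R 4.3.3, limma 3.58.1, functions lmFit and eBayes, the latter with a trend). Tests were two-sided, with Benjamini-Hochberg adjustment over all IDs tested. The other tables were fitted separately by the same steps. The fit was also run on simulated reads, drawn without shifts shared by the transcripts of a library. That run therefore says nothing on the library differences described above. Tables were handled with Python 3.11.15, pandas 2.3.3 and numpy 2.4.6.

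Deviations from the group mean of same-numbered day 12 libraries correlated at 0.17, 0.25, 0.17 and 0.41. Day 12 results are therefore also given with the replicate number as a block. The main fit has no block, and the choice to show the block at day 12 rests on the data. In each direction, the named transcripts were the one with the largest change and the one with the highest day 9 mean, among calls whose groups did not overlap and that held without each of the 8 day 9 libraries. Alternatives were another pseudocount, filter or scaling, library weights, a replicate block, day 9 libraries alone, voom on the recovered reads and each library left out. Leaving out day 12 libraries for the day 9 counts and removing the length trend were added after the data were seen.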

Additional observations from a re-analysis of the deposited data

Results flagged for a closer look

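In 1 of the 32 groups of values examined, a single library lay far from the other 3. Control replicate 4 of day 9 held 20.5 M reads, against 22.2 to 22.5 M in the other controls of that day, and the gap was 0.855 of the range of the group. Chance alone marks about 1 group in 20. Without this library the fit called 1988 IDs, 1109 of them lower.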

How the results depend on the processing

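All 4 named transcripts, chosen to hold without each day 9 library, stayed called in the same direction in the other 19 alternatives (highest limma adjusted p = 0.0156), and 90.8% to 93.3% of the large falls had an X1 ratio of -2 or less when 1 library was left out. The number of day 9 calls was 5563 with library weights and 636 to 2976 with 1 library left out. Calls of at least 2-fold (227) numbered 151 at a mean of 5 RPKM or more, 137 with a pseudocount of 2, and 153 to 311 with 1 library left out. The interaction called 200 with library weights, of which 86 were also called at day 9, and 0 in every fit with 1 library left out. Calls shared with day 12 (563) were 2911 with library weights and 159 to 730 with 1 library left out. The share of calls that were higher was 44.2%, and 57.4% with library weights, 34.0% with the replicate block and 30.2% to 52.3% with 1 library left out. The cause of these shifts was not tested.

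With the replicate number as a replicate block the fit called 1478 IDs, 502 higher and 976 lower, of which 1210 were calls without it. Over all IDs tested, the deviations of same-numbered day 9 libraries correlated at 0.11, 0.01, -0.41 and 0.37 for replicates 1 to 4. The numbers were therefore not taken to pair the day 9 libraries, although the medians of the 214 large falls had the same order in both groups. With the block, the day 9 limma adjusted p was 6.20e-04 for SMED30031134 and 4.36e-04 for SMED30010350. It was 3.76e-04 for SMED30024919 and 0.0109 for SMED30001237. The number of large falls was 214 with the block too and the interaction had 0 calls. At day 12 the block made both named falls calls, while both named rises stayed called with a higher adjusted p. Of the 6400 IDs below the filter, the fit with no filter called 122, of which 103 were lower. RPKM of low transcripts rest on few reads, and such changes are understated.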
